A study of Mus musculus with 4 samples.

Results

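The transcripts described here belong to the p53 and DNA damage response. They were 37 mouse genes, chosen by symbol as p53 (Trp53), its regulators, the damage kinases and established p53 targets, out of 56004 gene entries. All 37 symbols were found, each with a single entry, and 34 of them were abundant enough to be tested among 12193 genes. The labels call the cells Kupffer cells, liver-resident macrophages, of the mouse. In the PRL-3 group (2 libraries) they had received exosomes, small secreted vesicles, from the MC38 mouse colon carcinoma line named MC38-PRL-3, and in the VT group (2 libraries) exosomes from the control line MC38-VT. PRL-3 is a phosphatase, and VT is not expanded in the labels. RNA was taken after 48 h in both groups, and an amount of 10 ug of exosomes is stated beside MC38-VT. No strain, age or isolation method was found in the labels. The labels call the 2 libraries of a group biological replicates without saying what separates them, so p values measure the spread between these libraries, which may be technical. Below, values under PRL-3 and under VT are those of the libraries given each kind of exosome, replicate 1 before replicate 2.

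p53 is a transcription factor that is kept scarce by the ubiquitin ligase Mdm2 and by its relative Mdm4. When DNA is damaged, the kinases Atm and Atr, with Chek2 and Chek1 below them, act on p53 and on Mdm2, and p53 accumulates, mostly through a longer life of the protein rather than more mRNA. It then raises genes that stop the cell cycle, such as Cdkn1a (the inhibitor p21), that lead to cell death, such as Bax, Bbc3 and Pmaip1, or that repair DNA, and it raises Mdm2, which closes the loop.

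Levels are in FPKM (fragments per kilobase and per 1e6 fragments), a scale per length on which genes can be set side by side. A difference is the mean log2(FPKM + 1) under PRL-3 minus that under VT. The groups were compared with limma over all 12193 genes, and an adjusted p below 0.05 made a call. This called 6 genes (0.0492%), 3 higher (0.0246%) and 3 lower (0.0246%). The low values implied a depth of 17 to 18.7 times 1e6 fragments per library. Of 10 macrophage markers read, 9 were abundant enough to be tested, with Lyz2, Cd14 and Cd68 the highest. The remaining marker, Mertk, was at 0.02 FPKM or less in every library. The Kupffer cell markers Clec4f, Vsig4, Timd4, Marco, Cd163 and C6 had no value above 0 in any library. These are 6 of the 12 Kupffer cell markers read. Of the other 6, Xlr (42.5 to 65.2 FPKM), Id3 (14.7 to 17.1), Nr1h3 (4.68 to 6.85) and Cd5l (1.05 to 3.52) were abundant enough to be tested, and Spic and Cdh5 were at 0.24 FPKM or less. Resident Kupffer cell markers were thus in part absent. The PRL-3 libraries differed more from each other (SD of the log2 ratio 0.41 across genes) than the VT libraries did (0.31). The correlation of log2 values was 0.9774 within the PRL-3 pair and 0.9872 within the VT pair. Between a PRL-3 and a VT library it was 0.9777 to 0.9853. The PRL-3 libraries were thus no more like each other than like the VT libraries.

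The DNA that p53 binds is a pair of decamer half-sites. The consensus half-site of p53 was searched in RefSeq promoter windows (build GRCm38.p6) running 250 bases before to 50 bases after each annotated start. The consensus reads the same on both strands. Of the 30 genes of the group with a window, 12 (40%) held a half-site that matched at every position, against 9.55% of all 27025 genes with a window. Ddb2, Perp, Pmaip1, Rrm2b, Trp53inp1, Xpc and Zmat3 had no window in the table. A pair of half-sites, no more than 13 bases apart, with the invariant C and G in place and at most 1 mismatch over the pair, was found for 3 of the 30 genes (10%), against 0.718% of all genes. These were Cdkn1a, Ccng1 and Gtse1, and their windows are shown because they carry the paired sites. Capitals mark the half-sites. The windows are chr17:29090729-29091028 (plus strand) for Cdkn1a, chr11:40755237-40755536 (minus strand) for Ccng1 and chr15:85859696-85859995 (plus strand) for Gtse1, each written 5′ to 3′.
Cdkn1a: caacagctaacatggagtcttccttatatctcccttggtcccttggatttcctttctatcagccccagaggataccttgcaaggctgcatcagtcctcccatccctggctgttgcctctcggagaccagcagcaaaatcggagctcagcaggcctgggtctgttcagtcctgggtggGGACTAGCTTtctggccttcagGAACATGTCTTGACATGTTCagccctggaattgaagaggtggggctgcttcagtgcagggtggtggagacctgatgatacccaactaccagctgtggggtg
Ccng1: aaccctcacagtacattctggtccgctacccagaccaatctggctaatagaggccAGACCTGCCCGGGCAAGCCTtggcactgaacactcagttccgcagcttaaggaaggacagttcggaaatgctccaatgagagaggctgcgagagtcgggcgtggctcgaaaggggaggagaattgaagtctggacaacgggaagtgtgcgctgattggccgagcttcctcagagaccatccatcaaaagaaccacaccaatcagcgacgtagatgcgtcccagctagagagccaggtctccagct
Gtse1: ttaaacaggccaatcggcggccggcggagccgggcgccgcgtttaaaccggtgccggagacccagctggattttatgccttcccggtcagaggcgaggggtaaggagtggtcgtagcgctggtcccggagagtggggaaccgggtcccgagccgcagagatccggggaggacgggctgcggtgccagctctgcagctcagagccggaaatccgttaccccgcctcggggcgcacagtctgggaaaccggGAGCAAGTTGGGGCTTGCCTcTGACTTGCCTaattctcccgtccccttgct
Cdkn1a and Gtse1 each had 2 windows, and only the window shown held pairs. Positions are counted from the annotated start to which the window shown belongs. In the Cdkn1a window the capitals covered 2 overlapping pairs. The pair with both half-sites directly adjacent lay at positions -51 to -32 from the start and had 1 mismatch, and the other, with a spacer of 12 bases, had 0 mismatches. The pair in the Ccng1 window lay at positions -195 to -176. In the Gtse1 window 2 pairs overlapped each other, the first at positions -1 to 19 and so across the start, the second at 10 to 30. A match is a description of letters and not a binding site. Of the 12 tested genes with a half-site, 2 (Cdkn1a and Gadd45a) had both PRL-3 values above both VT values, 1 (Sesn1) had both below and 9 overlapped. Of the 16 tested genes with a window and no half-site, 5 had both above, 2 had both below and 9 overlapped. Over all genes tested, 24.3% had both above and 18% both below. The median log2 difference was -0.02 with a half-site and 0.09 without.

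The tested genes spanned Bax at 181 FPKM to Trp53inp1 at 1.73 FPKM (means of the 4 libraries). Of the 34, 0 were called by limma (lowest adjusted p = 0.47), beside 0.0492% of all genes. An unadjusted p under 0.05 was reached by 3 (Dram1, Cdkn1a and Gadd45a), all higher, where 9.51% of all genes reached it, 5.66% higher and 3.85% lower. The mean log2 value was higher under PRL-3 for 19 of the 34 and for 53.4% of all genes. In bulk RNA, fewer cells of a type and less RNA per cell cannot be told apart. Every difference among the 34 was smaller than 1.5-fold on the log2(FPKM + 1) scale, from -0.34 (Atm) to 0.37 (Dram1), while the 5th and 95th percentiles of all genes were -0.36 and 0.41. The 2 PRL-3 values lay above both VT values for 11 genes (32.4%), against 24.3% of all genes, and below them for 3 (8.82%), against 18% of all genes. The other 20 overlapped. The median log2 difference of the 34 was 0.01, against 0.02 over all genes, and it was 0.10 without PRL-3 replicate 1 and -0.03 without PRL-3 replicate 2. With mean FPKM of 5 or more required, 7 of 27 genes lay above, beside 2125 of all 9144 genes then tested.

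**Figure D1:**
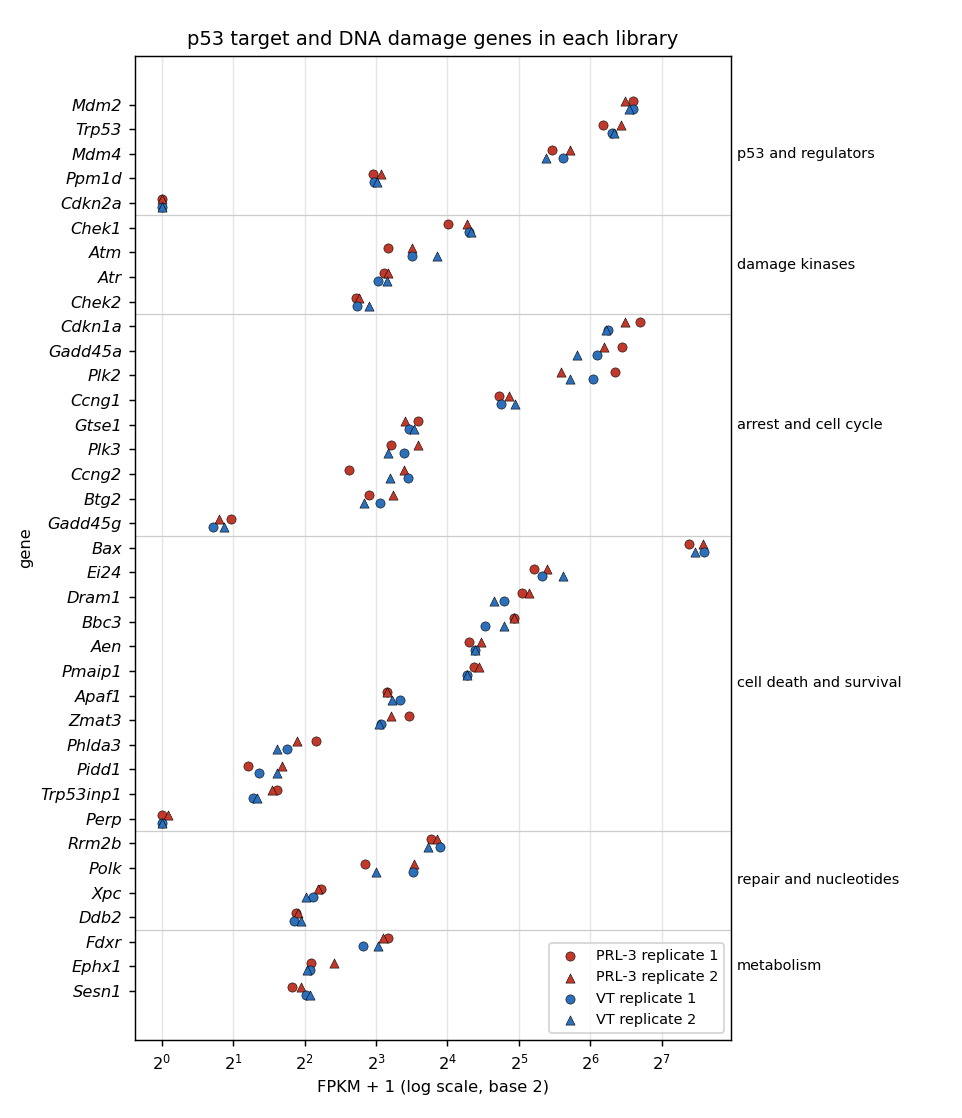
FPKM + 1 (log axis) of the 37 genes in each library, ordered by role and level, with circles for replicate 1, triangles for replicate 2, red for PRL-3 and blue for VT. The groups lie close together for nearly every gene, from Bax near 181 FPKM to Cdkn2a, at 0 in all 4 libraries.

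Trp53 itself was abundant and overlapped between the groups. It stood at 71.1 and 85.4 FPKM under PRL-3, against 78.3 and 79.7 FPKM under VT, so that the VT values lay inside the PRL-3 range (log2 difference -0.02, standard error 0.12, 95% interval -0.31 to 0.28). Mdm2 was at 96.1 and 88.3 FPKM under PRL-3, against 96.2 and 92.0 under VT (log2 difference -0.03, 95% interval -0.28 to 0.22). As a p53 target that also degrades p53, it is a common readout of p53 activity, and its transcript was the second most abundant of the group after Bax by the mean of the 4 libraries, although Cdkn1a exceeded it in both PRL-3 libraries. Mdm4, which binds and restrains p53, was at 43.1 and 51.4 FPKM under PRL-3, against 48.1 and 40.6 under VT. Ppm1d, the phosphatase that undoes phosphorylation by the damage kinases, was at 6.76 and 7.42 FPKM under PRL-3, against 6.83 and 7.10 under VT. The values of all 4 overlapped between the groups.

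Cdkn2a, which encodes the cell cycle inhibitor p16 and, from another reading frame, the Mdm2 inhibitor Arf, was listed at 0 in all 4 libraries. Over its longest annotated transcript (895 bases) a count of 0 allows, at 3 fragments per library, up to 0.244 to 0.269 FPKM, a limit for counting error only. Genes around it were then read from the same tables (chosen after the Cdkn2a values were seen). On GRCm38, Cdkn2a lies on chromosome 4, 89274471 to 89294653, minus strand. Its neighbour Cdkn2b, the inhibitor p15 (89306299 to 89311039), was also at 0 in all 4 libraries, and so was Dmrta1 (89679436 to 89694772). On the other side lies the lincRNA Gm12606 (89235699 to 89273403, also minus strand), which starts just downstream of the annotated end of Cdkn2a. Gm12606 was at 25.2 and 39.2 FPKM under PRL-3, against 31.4 and 25.6 under VT. Mtap, a methionine salvage enzyme (89137122 to 89181081), was at 24.7 and 29.3 FPKM under PRL-3, against 27.3 and 27.99 under VT. These values are of RNA and say nothing on the DNA of the locus.

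**Figure D2:**
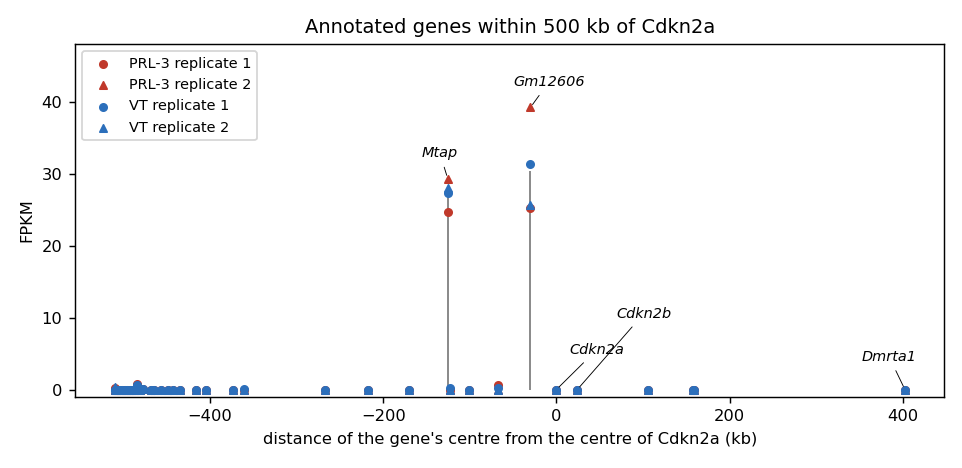
FPKM of annotated genes within 500000 bases of Cdkn2a, by distance in kb from its centre, with circles for replicate 1, triangles for replicate 2, red for PRL-3, blue for VT and lines up to the mean of the libraries. Mtap and Gm12606 stand at 24.7 to 39.2 FPKM in all 4 libraries, and Cdkn2a, Cdkn2b and Dmrta1 at 0.

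The kinases that report DNA damage had low to moderate levels. Atm, which answers to double-strand breaks, was at 7.96 and 10.3 FPKM under PRL-3, against 10.3 and 13.4 under VT, where the higher PRL-3 value (10.34) just passed the lower VT value (10.29). Its log2 difference of -0.34 (standard error 0.18) was the lowest of the group (adjusted p = 0.60). Chek1, the kinase below Atr that also guards normal S phase, was at 15.02 and 18.4 FPKM under PRL-3, against 18.7 and 19.03 under VT, with both PRL-3 libraries below. Its log2 difference was -0.17 with all libraries and -0.04 without PRL-3 replicate 1. Atr, which answers to single-stranded DNA, was at 7.61 and 7.97 FPKM under PRL-3, against 7.14 and 7.90 under VT. Chek2 was at 5.56 and 5.77 FPKM under PRL-3, against 5.62 and 6.50 under VT. None of the 4 kinases was called.

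Of the genes that halt the cell cycle, Cdkn1a and Gadd45a had both PRL-3 values above both VT values. Cdkn1a, which encodes p21, the inhibitor of cyclin-dependent kinases, was at 103 and 88.8 FPKM under PRL-3, against 74.9 and 73.3 under VT. The means were 95.8 ± 9.96 FPKM under PRL-3, against 74.1 ± 1.14 under VT (SD, n = 2 each), 1.29-fold higher, with a log2 difference of 0.36 (standard error 0.11, adjusted p = 0.49). Leaving out 1 library at a time gave log2 differences of 0.26 (without PRL-3 replicate 1) to 0.47 (without PRL-3 replicate 2). Gadd45a, a small stress protein that binds PCNA and stress kinases, was at 85.7 and 71.8 FPKM under PRL-3, against 67.2 and 55.0 under VT. Its log2 difference was 0.36 (standard error 0.14, adjusted p = 0.52), and the lower PRL-3 value was close to the higher VT value. Of the 37 genes, 9 share exon bases with another annotated gene, 7 of them with one on the opposite strand, and both of these are among the 7 (AC167363.2 with Cdkn1a, E230016M11Rik with Gadd45a). The libraries are not stated to mark strand, and these partners were at no more than 0.40 and 1.73 FPKM.

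The other genes of this class overlapped between the groups. Ccng1, cyclin G1, one of the first p53 targets known, was at 25.3 and 28.1 FPKM under PRL-3, against 26 and 29.7 under VT. Ccng2, its relative, was at 5.15 and 9.49 FPKM under PRL-3, against 9.86 and 8.15 under VT, with PRL-3 replicate 1 well below the other 3. Gtse1, a microtubule-binding protein that lowers p53 activity in dividing cells, was at 11.1 and 9.58 FPKM under PRL-3, against 10.1 and 10.6 under VT. Of the polo-like kinases, Plk2 was at 80.3 and 47.1 FPKM under PRL-3, against 64.8 and 51.4 under VT, the widest spread within a group among the abundant genes. Plk3 was at 8.28 and 11.1 FPKM under PRL-3, against 9.47 and 7.96 under VT. Btg2, an antiproliferative cofactor of mRNA decay, was at 6.48 and 8.40 FPKM under PRL-3, against 7.29 and 6.12 under VT. The signs of the Ccng2 and Plk2 differences turned when a library was left out, with ranges of -0.70 to 0.07 and -0.29 to 0.47. Gadd45g, the paralogue of Gadd45a, was at 0.96 and 0.74 FPKM under PRL-3, against 0.65 and 0.83 under VT, about 9.86 to 13.6 fragments each, and was not tested. Of the pair, Gadd45a was the abundant transcript in every library.

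**Figure D3:**
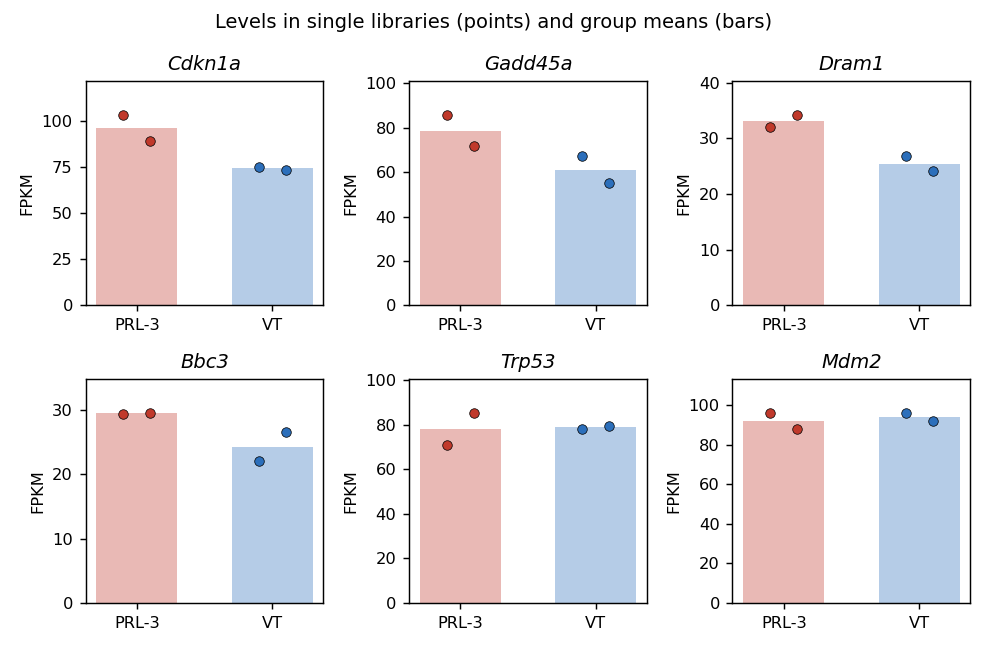
FPKM of Cdkn1a, Gadd45a, Dram1, Bbc3, Trp53 and Mdm2, with a point for each library and a bar for the mean of each group, PRL-3 on the left and VT on the right of each panel. Both PRL-3 points lie above both VT points for Cdkn1a, Gadd45a, Dram1 and Bbc3, whereas Trp53 and Mdm2 overlap.

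Among the 11 tested genes of cell death and survival, 6 (54.5%) had both PRL-3 values above both VT values and 1 (9.09%) had both below, beside 24.3% and 18% of all genes. Dram1, a lysosomal membrane protein that promotes autophagy downstream of p53, had the largest positive difference of the group. It was at 32.1 and 34.2 FPKM under PRL-3, against 26.8 and 24.2 under VT, 33.1 ± 1.48 and 25.5 ± 1.85 FPKM as means (SD, n = 2 each). The log2 difference was 0.37 (standard error 0.11, unadjusted p = 0.014, adjusted p = 0.47 by limma), or 1.30-fold on the means. Bbc3, the BH3-only protein Puma, was at 29.4 and 29.5 FPKM under PRL-3, against 22.0 and 26.6 under VT (log2 difference 0.27, standard error 0.12). Pmaip1, the BH3-only protein Noxa, was at 19.8 and 20.7 FPKM under PRL-3, against 18.3 and 18.4 under VT (log2 difference 0.13, standard error 0.10). Neither BH3-only gene overlapped between the groups, and neither was called.

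Bax, the pore-forming effector, was the most abundant transcript of the group, at 166 and 191 FPKM under PRL-3, against 192 and 176 under VT (log2 difference -0.05, 95% interval -0.34 to 0.24). Apaf1, the scaffold of the apoptosome, was at 7.87 and 7.94 FPKM under PRL-3, against 9.07 and 8.36 under VT, with both PRL-3 libraries below. Aen, a nuclease of apoptotic cells, was at 18.8 and 21.1 FPKM under PRL-3, against 19.8 and 20 under VT. Of these 3, Apaf1 alone had groups that did not overlap. Ei24, a protein of the endoplasmic reticulum, was at 35.9 and 40.9 FPKM under PRL-3, against 39.0 and 48.2 under VT. Pidd1, a death-domain scaffold for caspase activation, was at 1.30 and 2.22 FPKM under PRL-3, against 1.56 and 2.07 under VT. Perp, an epithelial membrane protein, was listed at 0.06 FPKM in PRL-3 replicate 2, which is about 1.87 fragments, and at 0 in the other 3 libraries.

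Another 3 targets of this class were higher in both PRL-3 libraries at low levels. Zmat3, an RNA-binding regulator of splicing, was at 9.99 and 8.24 FPKM under PRL-3, against 7.4 and 7.22 under VT (log2 difference 0.28, standard error 0.14). Phlda3, which restrains the kinase Akt, was at 3.47 and 2.70 FPKM under PRL-3, against 2.36 and 2.05 under VT (log2 difference 0.35, standard error 0.18). Trp53inp1, which acts in autophagy and on p53, was at 2.07 and 1.91 FPKM under PRL-3, against 1.42 and 1.52 under VT (log2 difference 0.28, standard error 0.17). The 95% interval of each difference included 0, and adjusted p values were 0.59, 0.59 and 0.66. For Phlda3 the values rested on about 45.5 to 70.6 fragments per library.

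**Figure D4:**
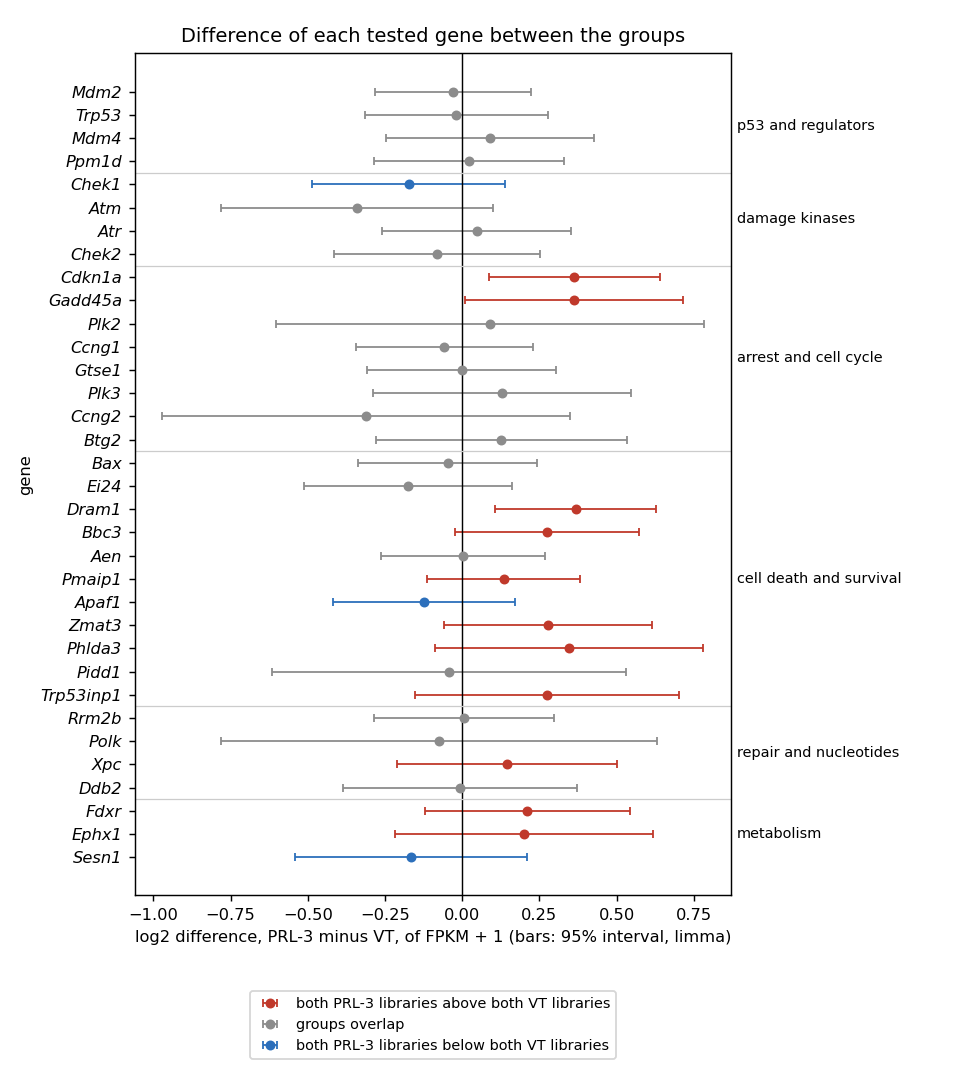
Difference on the log2(FPKM + 1) scale, PRL-3 minus VT, of the 34 tested genes, with 95% intervals from limma, grouped by role. Red marks the 11 genes with both PRL-3 values above both VT values, blue the 3 with both below and grey the 20 that overlap. The intervals of Cdkn1a, Gadd45a and Dram1 leave out 0, before adjustment over all genes.

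The repair genes were low, and 3 of the 4 overlapped between the groups. Xpc and Ddb2 recognise damage in nucleotide excision repair. Xpc was at 3.69 and 3.57 FPKM under PRL-3, against 3.32 and 3.06 under VT, with no overlap (log2 difference 0.14, standard error 0.15). Ddb2 was at 2.68 and 2.76 FPKM under PRL-3, against 2.60 and 2.88 under VT, so the PRL-3 values fell between the VT values. Its exons share bases with Acp2 on the opposite strand, which was at 19.7 to 22.5 FPKM over the libraries, and without strand the reads of the pair cannot be told apart there. Rrm2b, the p53-induced subunit of ribonucleotide reductase, was at 12.7 and 13.4 FPKM under PRL-3, against 13.8 and 12.2 under VT. Polk, a DNA polymerase that copies past lesions, was at 6.17 and 10.6 FPKM under PRL-3, against 10.5 and 7 under VT, a spread within each group that covered any difference between them. Of the metabolic targets, Fdxr, the mitochondrial ferredoxin reductase, was at 8.01 and 7.56 FPKM under PRL-3, against 6.06 and 7.16 under VT. Ephx1, an epoxide hydrolase, was at 3.27 and 4.34 FPKM under PRL-3, against 3.22 and 3.09 under VT. Both were higher in both PRL-3 libraries, Ephx1 by a margin of 0.05 FPKM in the closest pair. Sesn1, a sestrin that restrains growth signalling, was at 2.55 and 2.85 FPKM under PRL-3, against 3.07 and 3.22 under VT, with both PRL-3 libraries below.

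Another 3 lists place these genes in their pathway. Of 25 tested other p53 targets and cofactors, 0 were called by limma and 4 had an unadjusted p under 0.05, beside 9.51% of all genes. In this list 9 (36%) lay above and 5 (20%) below, beside 24.3% and 18% of all genes, and the median log2 difference was 0.16, against 0.02 over all genes. The most abundant were the ribosomal protein relative Rps27l, at 315 and 422 FPKM under PRL-3, against 388 and 385 under VT, the ubiquitin ligase Cop1, at 84.2 and 73.1 under PRL-3, against 73.5 and 63.9 under VT, and the tetraspanin Cd82, at 68.3 and 76.7 under PRL-3, against 76.5 and 63.1 under VT. These 3 overlapped. The receptor genes Fas (12.0 and 14.5 FPKM under PRL-3, 8.15 and 7.41 under VT, adjusted p = 0.45) and Eda2r (9.14 and 9.65 FPKM under PRL-3, 7.18 and 6.14 under VT, adjusted p = 0.48) were the 2 of those 4 that were higher. The other 2 were lower, Steap3, a metalloreductase (5.14 and 5.63 FPKM under PRL-3, 7.19 and 8.56 under VT, adjusted p = 0.48), and Bid, a BH3-only protein (28.6 and 28.7 FPKM under PRL-3, 33.4 and 34.8 under VT, adjusted p = 0.51). These 4 were picked with their values known. The median of that list was 0.04 without PRL-3 replicate 2, 0.01 without VT replicate 2 and 0.06 with a mean FPKM of 5 or more.

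Of 40 damage sensors and repair genes, all tested, 0 were called by limma and 4 (Parp1, Clspn, Cdc25c and Fancd2) had an unadjusted p under 0.05, all lower, beside 3.85% of all genes. Here 3 (7.5%) lay above and 15 (37.5%) below, beside 24.3% and 18% of all genes, and the median was -0.03. Rad23b, a partner of Xpc, was at 172 and 221 FPKM under PRL-3, against 219 and 210 under VT. Ddb1, the partner of Ddb2, was at 102 and 119 FPKM under PRL-3, against 121 and 137 under VT, with both PRL-3 libraries below. Ercc1, a repair nuclease subunit, was at 57.4 and 34.1 FPKM under PRL-3, against 34.2 and 35.7 under VT, PRL-3 replicate 1 standing alone. Parp1, the sensor of strand breaks, had a log2 difference of -0.66 with all libraries and -0.95 without PRL-3 replicate 2. That fit takes the spread from the VT pair alone and assumes that the lone PRL-3 library varies likewise. Parp1 was at 23.2 and 35.2 FPKM under PRL-3, against 44.4 and 47.2 under VT.

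The last list held 18 cell cycle genes, chosen as genes that p53 can repress through p21, and all were tested. Of these, 0 were called by limma and 9 had an unadjusted p under 0.05, all lower, beside 3.85% of all genes. A part of p53 or p21 in these values was not tested. The mean was lower under PRL-3 for all 18, and 16 (88.9%) had both PRL-3 values below both VT values, beside 18% of all genes (median -0.35). Pcna, the sliding clamp of replication, was at 96.1 and 128 FPKM under PRL-3, against 150 and 155 under VT. Cdk1 was at 60.0 and 66.3 FPKM under PRL-3, against 70.3 and 81.9 under VT, and Top2a at 49.1 and 56.7 under PRL-3, against 58.0 and 66.2 under VT. Only Plk1, Cdc20, Foxm1 and Cdc25c were lowest in PRL-3 replicate 2. All the other genes of the list, Pcna, Cdk1 and Top2a among them, were lowest in PRL-3 replicate 1. Cdc25c stands in this list and in that of the damage sensors. The median of the cell cycle list was -0.20 when PRL-3 replicate 1 was left out. It was -0.43 when replicate 2 of the same group was left out instead. Rrm2, a subunit of ribonucleotide reductase, had a log2 difference of -0.66 with all libraries and -0.81 without PRL-3 replicate 2.

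**Figure D5:**
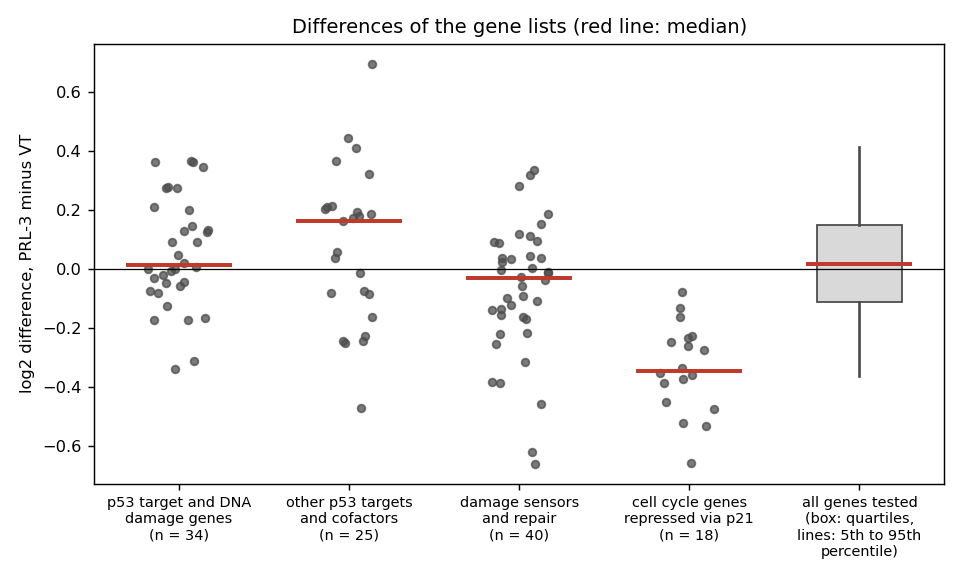
Differences on the log2(FPKM + 1) scale, PRL-3 minus VT, of the 34 tested p53 target and DNA damage genes and of the other lists (25, 40 and 18 genes), with a point per gene and a red line at each median, beside the quartiles and the 5th to 95th percentile of all 12193 genes. The median of the 34 genes, 0.01, lies next to that of all genes, 0.02, and the cell cycle genes lie at -0.35.

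Markers of other cell types were read in the same libraries. Of 8 stellate cell and fibroblast markers, 3 were tested and 0 were called by limma. Acta2 and Tagln, 2 of the 3, had an unadjusted p under 0.05, both higher, beside 5.66% of all genes. Acta2 was at 1.94 and 2.61 FPKM under PRL-3, against 0.97 and 0.86 under VT. Tagln was at 2.33 and 1.60 under PRL-3, against 0.57 and 0.87 under VT. Dcn, at 6.63 and 4.32 under PRL-3, against 5.44 and 4.65 under VT, overlapped. The summed level of the 8 markers was 13.1 and 10.6 FPKM under PRL-3, against 7.02 and 6.43 under VT. Lrat was at 0 in all 4 libraries, and Col1a2 and Col3a1 were at 0 in both VT libraries. Col1a1, Col1a2, Col3a1 and Pdgfrb were too low to be tested, at 0.18 to 0.86 FPKM under PRL-3, against 0 to 0.03 under VT. The part of these 8 markers in the differences above was not tested. The 6 markers each of hepatocytes, endothelial cells, epithelial tumour cells and lymphocytes summed to no more than 0.55 FPKM in any library. The 6 neutrophil markers summed to 216.5 and 270.7 FPKM under PRL-3, against 309 and 246.7 under VT, carried by S100a8, and the groups overlapped. S100a9 was at 0.40 FPKM in PRL-3 replicate 1 and at 0 in the other 3 libraries, and Elane, Camp, Mpo and Ly6g were at 0 in all 4.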

How the data were processed

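Per the labels, TRIzol RNA of 4 samples (2 per group) was enriched for mRNA, primed with random hexamers and amplified, with no statement on strand. For each library the authors deposited a table of gene values with 2 decimals, read here as FPKM, and their processing notes name RSEM, DESeq2 and mm10 without roles. No label or column header names the unit. The reading as FPKM rests on the values. Sums differed between libraries, and low values of single-transcript genes came out as whole fragments at 17 to 18.7 times 1e6 fragments per library. The share within 0.2 of a whole number was 90.1% to 92.5%. Depth and fragment length were chosen per library to make this share largest. The 40% given by chance holds for a setting fixed in advance, so it is too low a comparison. The aligner is not given in the sources used here. Of the 37 entries, 10 were assembled transcripts (MSTRG). Positions are from GENCODE M21 (GRCm38), which matched all 37.

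A gene was tested if 2 or more libraries reached an FPKM of 1. Values were compared as log2(FPKM + 1) with limma 3.58.1 in R 4.3.3 (mean-variance trend, robust moderation) and Benjamini-Hochberg adjustment over all 12193 genes. The pseudocount of 1 understates changes of low genes. The fit was tested on simulated data. All 37 genes are described, and of each other pathway list the called genes or else the 3 of highest mean. Others named (Fas, Eda2r, Steap3, Bid, Parp1, Clspn, Cdc25c, Fancd2, Rrm2, Plk1, Cdc20 and Foxm1) were chosen after their values were seen. Genes and lists were chosen with earlier results of these data known. Alternatives were other pseudocounts, filters and scalings, a plain fit, a replicate block and leaving out each library.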

Additional observations from a re-analysis of the deposited data

How the results depend on the processing

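No member was called under any of the 13 alternatives. With a library left out, the spread comes from the pair of the other group alone. Of 435 single values, 36, from 18 members whose groups overlap, changed sign. The number of genes called, 6, was 1 with a pseudocount of 0.1, 0 with no filter, 1 with a mean FPKM of 5 or more, 2 with neither trend nor robust fit, and 0 to 100 when 1 library was left out (100 without PRL-3 replicate 2, where the spread comes from the VT pair alone). With a mean FPKM of 5 or more, 7 of 27 members lay above, beside 2125 of 9144 genes. The median of the other p53 targets was then 0.058. With quantile normalization 5 members lay below, beside 2482 of 12193 genes, and that median was 0.092. With equal sums 5 damage sensors and repair genes lay above, beside 3194 of 12193 genes. Leaving out 1 library, the median of the members ranged from -0.033 to 0.096, of the other p53 targets from 0.014 to 0.16, of the damage sensors and repair genes from -0.12 to -0.0044, and of the cell cycle genes from -0.43 to -0.20, with 0 to 1 gene called in each of the last 2 lists. The numbers of the replicates mark nothing shared in the labels, and the deviations of same-numbered libraries did not go together (correlation -0.06 across genes). With the replicate block 15 genes were called and no member. Summing the entries of a symbol was not run, since each of the 37 symbols has 1 entry. Single values of genes under 1 FPKM rest on few fragments.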
